A study of Mus musculus with 72 samples.

Results

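Lipid droplets are the organelles in which cells store triglyceride, and the genes described here encode proteins that coat, join or guard them. The 8 genes were chosen by symbol: the CIDE genes Cidea, Cideb and Cidec, the perilipins Plin2, Plin3, Plin4 and Plin5, and G0s2, out of 24091 genes listed in the liver or the suprachiasmatic nucleus (SCN) table. The liver table lists 7 of them (no row for Cidea), the SCN table lists 7 (no row for Cidec), and 6 stand in both. RNA was sequenced from the liver and from the SCN, the hypothalamic nucleus that holds the master circadian clock, of C57BL/6 mice aged 8 to 12 weeks. The mice were fed ad libitum either a methionine/choline deficient (MCD) diet or its isocaloric control diet, spent 10 days in a light/dark cycle, and were killed on day 11, in constant darkness, at 1 of 6 circadian times (CT), every 4 h from CT00 to CT20. With 3 libraries (2 labelled male, 1 labelled female) for every tissue, diet and time there are 72 libraries in 24 groups, or 18 per tissue and diet. The labels give no genotype other than C57BL/6, and all mice were held alone in a cage. The liver sample came from the left lobe, and the SCN was cut from frozen brain sections with a laser microscope.

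A lipid droplet is a core of neutral lipid under a single layer of phospholipid, and the proteins on that surface decide how easily lipases reach the core. Perilipins shield the droplet and hold lipase cofactors: Plin2 is the general coat of hepatocyte droplets, Plin3 binds small new droplets and exchanges with the cytosol, Plin4 also binds new droplets, and Plin5 is found in oxidative tissues and links droplets to mitochondria. CIDE proteins sit where droplets touch and pass lipid from the smaller to the larger one. Cidec (also called Fsp27) and Cidea are best known from fat tissue and appear in fatty liver, whereas Cideb is the CIDE gene of normal hepatocytes and also acts in lipoprotein lipidation. G0s2 encodes an inhibitor of adipose triglyceride lipase, the enzyme that Pnpla2 encodes. In mice, a diet without methionine and choline is a common model of fatty liver, because the liver then makes too little phosphatidylcholine for lipoprotein export.

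The genes differ in place and in promoter sequence, which is shown here for the 4 members whose diet or time effects are described most fully below. In the GENCODE M21 annotation of GRCm38, which is not the build of the count tables and was used for positions only, Plin4 (17:56100591-56109803) and Plin5 (17:56111601-56117596) lie 1797 bases apart on the minus strand with no protein-coding gene between them. Plin3 (17:56277476-56292873) lies 168 kb from Plin4 on the same strand. Cidec is at 6:113424634-113435760, Plin2 at 4:86648386-86670060, Cideb at 14:55754050-55758458 and G0s2 at 1:193272161-193273217, all on the minus strand. In the count tables the identifiers are ENSMUSG00000024526.10 (Cidea), ENSMUSG00000022219.11 (Cideb), ENSMUSG00000030278.12 (Cidec), ENSMUSG00000028494.13 (Plin2), ENSMUSG00000024197.11 (Plin3), ENSMUSG00000002831.15 (Plin4), ENSMUSG00000011305.12 (Plin5) and ENSMUSG00000009633.4 (G0s2). RefSeq (GRCm38.p6) gave promoter windows for 7 of the 8 genes. The sequences below run 5′ to 3′ on the minus strand up to the first annotated exon, at 6:113435761-113436010 (Cidec), 4:86670061-86670309 (Plin2), 17:56109804-56110032 (Plin4) and 17:56117597-56117798 (Plin5). Capitals mark a match to TAGGTCA or AGGTCA on either strand.
Cidec: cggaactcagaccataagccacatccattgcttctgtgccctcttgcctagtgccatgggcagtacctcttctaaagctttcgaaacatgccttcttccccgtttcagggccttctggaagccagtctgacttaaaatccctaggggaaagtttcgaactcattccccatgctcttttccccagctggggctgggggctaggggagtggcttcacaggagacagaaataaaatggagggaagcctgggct
Plin2: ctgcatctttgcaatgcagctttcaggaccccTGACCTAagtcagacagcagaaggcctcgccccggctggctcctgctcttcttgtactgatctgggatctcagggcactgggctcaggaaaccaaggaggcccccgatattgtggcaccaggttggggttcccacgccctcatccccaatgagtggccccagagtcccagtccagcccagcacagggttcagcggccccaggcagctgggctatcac
Plin4: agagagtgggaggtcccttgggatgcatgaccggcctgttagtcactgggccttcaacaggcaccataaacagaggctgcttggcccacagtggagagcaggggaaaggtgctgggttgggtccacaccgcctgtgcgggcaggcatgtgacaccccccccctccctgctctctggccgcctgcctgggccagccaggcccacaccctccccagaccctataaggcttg
Plin5: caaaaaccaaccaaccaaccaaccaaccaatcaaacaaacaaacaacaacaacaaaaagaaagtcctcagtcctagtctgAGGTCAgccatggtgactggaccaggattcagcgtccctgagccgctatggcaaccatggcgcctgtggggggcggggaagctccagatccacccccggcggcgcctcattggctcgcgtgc

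Motifs were searched on both strands in the 250 bases before each start. TAGGTCA, an extended half-site for nuclear receptors such as the clock proteins of the Ror and Nr1d families, stood in the Plin2 window, 218 to 212 bases before the start, and in 2.23% of all 32851 windows. The plain half-site AGGTCA, which lies inside TAGGTCA, stood in the Plin2 and Plin5 windows (170 to 165 bases before the start in Plin5) and in 14% of all windows. TCACNCCA, a form of the sterol regulatory element, stood in the Plin3 window, 58 to 51 bases before the start, and in 3.67% of all windows. The DR1 element (a direct repeat of the half-site, of the kind that peroxisome proliferator-activated receptors bind), CACGTG (the E-box), TTATGNAA (the D-box) and TGACGTCA (the cAMP response element) had no match in a member's window. They stood in 0.338%, 6.02%, 3.07% and 1.55% of all windows. A match of this kind describes letters only.

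Liver libraries held 52.6 to 86.7 M gene counts (median 64.4) and SCN libraries 23.3 to 79.8 M (median 57.0), where M stands for 1e6 counts. Levels are CPM, the counts of a gene per 1e6 counts of the library total scaled by edgeR's TMM factor, which in liver was 0.917 ± 0.0739 on control and 1.10 ± 0.0793 on MCD (SD, n = 18). All 6 hepatocyte markers were listed in liver and all 7 SCN neuron markers in the SCN, where Alb was the only 1 of the 6 hepatocyte markers listed. The protocol text speaks of male mice, but Xist and Ddx3y separated the libraries labelled male and female in both tissues. Of the 3 liver control columns at CT08, 2 carry the same name, and 1 of these, called control CT08 a here, lay with the MCD libraries: over 1631 genes that differed by diet its mean score was 0.73, against -1.38 to -0.52 in the other 17 controls and 0.39 to 1.66 on MCD. Values without it are given where it changes a call or moves a called value by over 1.5 times. Liver libraries also fell into 2 kinds by the level of mt-Nd6, with 8 control and 13 MCD libraries of the low kind and 10 and 5 of the high kind, and the diet effect is given within each. The labels do not say whether libraries of a group came from separate mice beyond their sex, so p-values measure the spread between these libraries.

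**Figure D1:**
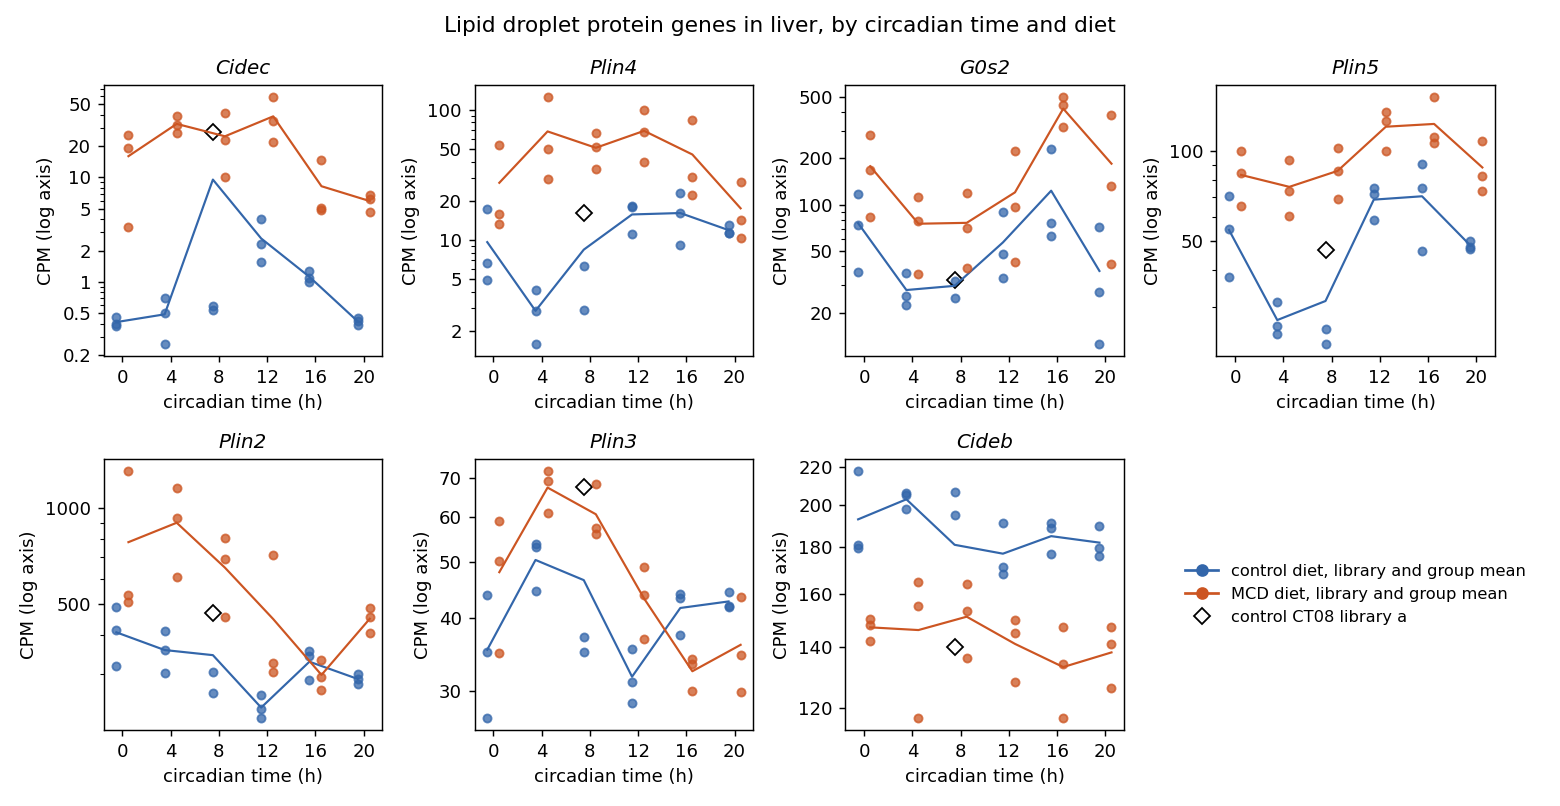
CPM of the 7 genes listed in liver (log axes) against circadian time in h; each point is 1 of 36 libraries, lines join the means of 3 libraries per diet and time, and the diamond is control CT08 a. Cidec, Plin4, Plin5 and G0s2 means were higher on MCD at all 6 times, and Cideb means were lower at all 6.

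On the MCD diet, the liver had more mRNA of 5 of these genes and less of 1. Averaged over the 6 times, Cidec was 14.5-fold higher, Plin4 3.99-fold, G0s2 3.02-fold, Plin5 1.99-fold and Plin2 1.69-fold, whereas Cideb was 1.31-fold lower and Plin3 did not pass the test. The 6 called genes of 7 stand beside 46.6% of 20249 genes called in the same comparison (25.3% higher and 21.2% lower), and the members' median difference was 0.99 log2 beside 0.02 over all genes. The test was edgeR's quasi-likelihood F test with Benjamini-Hochberg adjustment over all genes and a threshold of 0.05. In whole tissue, more or fewer cells of a type and more or less RNA per cell cannot be told apart.

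Cidec, whose product enlarges droplets, had low levels in control liver. Its lowest, median and highest CPM were 0.254, 0.563 and 27.5 on control and 3.37, 20.5 and 58.6 on MCD (n = 18 each). The control maximum was control CT08 a, and the next highest control library, at CT12, had 3.98 CPM. At CT04 the control libraries had 0.508, 0.254 and 0.708 CPM and the MCD libraries 39.2, 26.8 and 31.9, so that the groups lay far apart. Groups did not overlap at 5 of 6 times, CT08 being the exception, where the control libraries had 0.592, 0.534 and, in control CT08 a, 27.5 CPM against 10.1, 23.0 and 41.5 on MCD. The mean difference was 3.85 ± 0.42 log2 (SE; adjusted p = 5.66e-08), and without control CT08 a it was 4.54 ± 0.27, or 23.2-fold (adjusted p = 2.53e-12). Within the low kind of library, which includes control CT08 a, it was 3.21, and within the high kind 4.78.

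Cideb, the CIDE gene of normal hepatocytes, went the other way. Its lowest, median and highest CPM were 139.9, 189 and 218 on control and 117, 146 and 165 on MCD. All controls but control CT08 a, which was the lowest at 139.9, were above every MCD library. The next lowest control had 168 CPM. The mean difference was -0.39 ± 0.05 log2 (edgeR adjusted p = 9.39e-07) and without control CT08 a -0.43 ± 0.04, and it was -0.39 and -0.47 within the low and the high kind. Scaling by library totals alone moved the median of all genes up by 0.26 log2, and the Cideb difference was then -0.13 (adjusted p = 0.000885). Under that scaling 87.3% of calls over all genes were higher on MCD, against 54.4% with TMM. Part of Cideb, 1451 bases, overlaps Nop9 on the other strand, and the strand setting of the counting is not given in the sources used here. Nop9 had a difference of -0.02 ± 0.07 (adjusted p = 0.875).

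Cidea has no row in the liver gene table, and the deposited exon-bin counts give its level. Over its 5 exon bins the 16 control files used held 14 counts in all and the 18 MCD files 12. In each diet 13 files had no count, which allows up to 3 counts per file, and the most in any file was 7 counts on control, in the file labelled control CT08 1, and 4 on MCD. The same control CT08 1 file had 2364 bin counts of Cidec, the highest of the control files. Cidec reads therefore outnumbered Cidea reads on both diets, with 3093 counts of Cidec on control and 25402 on MCD.

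Among the perilipins, Plin4 and Plin5, the adjacent pair, rose most. Plin4 had 1.58, 11.2 and 22.9 CPM (lowest, median, highest) on control and 10.4, 37.2 and 125 on MCD, and 13 of 18 MCD libraries were above every control. The difference was 2.00 ± 0.24 log2 (edgeR adjusted p = 2.47e-07), and 2.17 ± 0.21 without control CT08 a. It was 1.80 within the low kind of library and 2.09 within the high kind, where the test lost it (adjusted p = 0.0628, with 5 MCD libraries). Plin5 had 22.6, 47.4 and 90.2 CPM on control and 60.6, 96.4 and 151 on MCD, with no overlap at 5 of 6 times. Its difference, 0.99 ± 0.11 log2 (adjusted p = 3.15e-08), was 0.94 and 0.88 within the low and the high kind and 1.05 without control CT08 a. The spread of Plin5 between libraries of a group, after a term for sex, was 0.33 log2 (SD), less than 0.71 for Plin4 and 1.19 for Cidec.

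Plin2, the coat protein of most hepatocyte droplets and the gene of the 7 with the highest mean CPM in liver, had 219, 305 and 488 CPM on control and 268, 496 and 1309 on MCD. Of the 18 MCD libraries 9 were above every control, and the difference was 0.76 ± 0.13 log2 (edgeR adjusted p = 2.65e-05). It was 0.63 and 0.67 within the kinds of library and 0.80 without control CT08 a. Over all times the libraries of the 2 diets overlapped widely for Plin3, with 26.9, 42.0 and 67.5 CPM on control, the highest in control CT08 a, and 29.8, 46.6 and 72 on MCD. Within times Plin3 did not overlap at CT04 and CT12, where MCD was higher, and at CT16, where MCD was lower. Its difference of 0.18 ± 0.08 log2 (95% interval 0.02 to 0.34) missed the threshold (adjusted p = 0.0812). It was 0.06 and 0.30 within the low and the high kind (adjusted p = 0.708 and 0.129) and 0.11 with the kind as a term (adjusted p = 0.236). It was called, at 0.23 ± 0.07, without control CT08 a (adjusted p = 0.00558), and also without control CT00 1 (0.21) or MCD CT00 2 (0.20), and at 0.43 with library totals alone. Without control CT08 a, 7 of 7 members were called, beside 48.6% of all genes.

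G0s2, the lipase inhibitor, varied widely between libraries (SD 0.84 log2 within groups, after a term for sex). It had 12.5, 36.2 and 229 CPM on control and 35.8, 115 and 495 on MCD, and 5 of 18 MCD libraries were above every control. The highest library of each diet was the female at CT16. The difference was 1.59 ± 0.28 log2 (edgeR adjusted p = 4.89e-05), 1.62 without control CT08 a, and 1.31 and 1.18 within the low and the high kind. G0s2 lies wholly within Lamb3, a laminin gene on the other strand, and Lamb3 counts rose too, from 3.69 ± 0.942 to 8.04 ± 3.13 CPM (SD, n = 18; 1.10 ± 0.12 log2, adjusted p = 6.22e-08). G0s2 levels were far above those of Lamb3 on both diets, and how reads of the pair were divided was not tested.

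**Figure D2:**
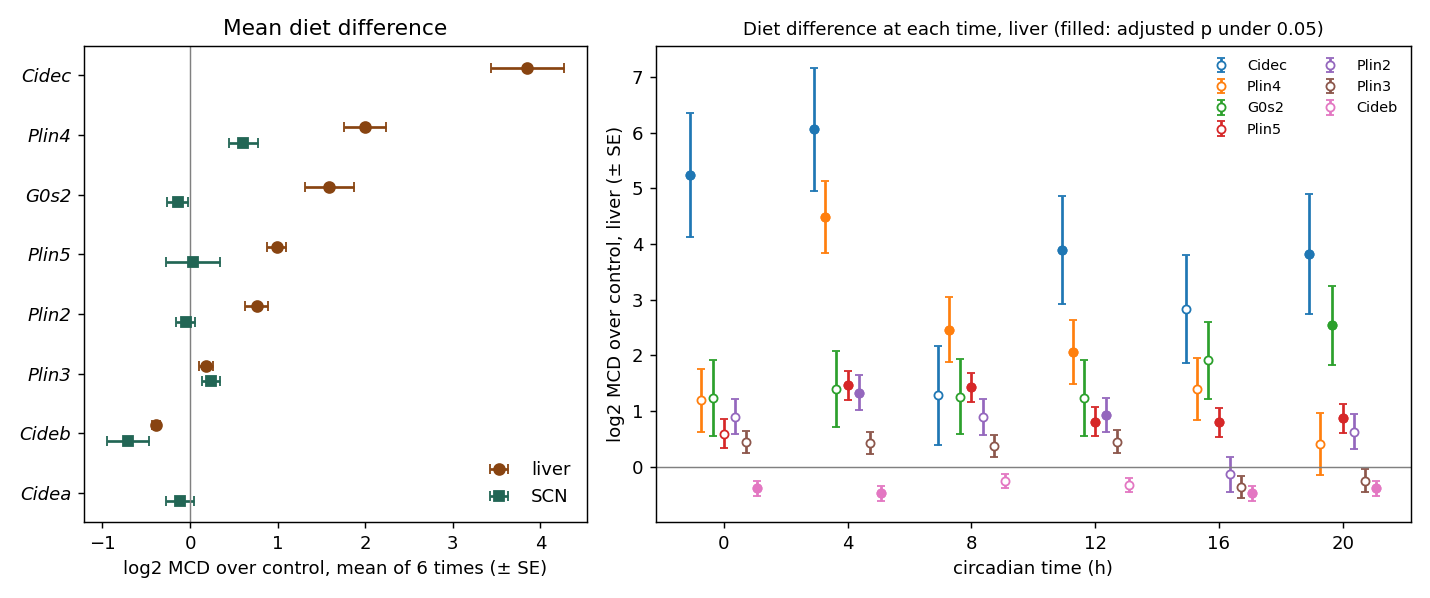
Difference between MCD and control in log2 (± SE): left, the mean over 6 times in liver (circles) and SCN (squares) for each gene; right, each time in liver, with filled points where the edgeR adjusted p was under 0.05. Cidec, Plin4, G0s2, Plin5 and Plin2 lie right of 0 in liver, and in the SCN no gene was called.

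Markers of other cells moved with diet in the same liver libraries. Of 10 macrophage markers 9 were listed (all but Gpnmb), and their summed level was 293 to 659 CPM on control and 371 to 799 on MCD. Of the 9, 7 were called higher, Trem2 by 2.39 log2 and Cd68 by 1.01, beside 25.3% of all genes. Timd4 (0.06) and Spp1 (-0.19) were not called. The control maximum of 659 was control CT08 a. Macrophages store lipid and express Plin2, and the part of this rise in the perilipin values was not tested. For fat cells, Adipoq, Plin1, Retn, Lep, Cfd and Ucp1 were not listed in the liver table, Fabp4 was not called (0.23, adjusted p = 0.177), and Adrb3 was lower on MCD (-0.62). Over the 6 hepatocyte markers the summed level was 73416 to 112066 CPM on control and 54149 to 116085 on MCD. Of these markers 3 were called lower, beside 21.2% of all genes.

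At CT04, 5 of 7 genes were called: Cidec at 6.06 ± 1.11 log2, Plin4 at 4.48 ± 0.65, Plin5 at 1.46, Plin2 at 1.33 and Cideb at -0.48, beside 18.2% of all genes. The Plin4 libraries at CT04 had 2.85, 1.58 and 4.13 CPM on control and 29.5, 50.3 and 125 on MCD. This was the lowest control time and the highest MCD library of Plin4, and the fitted ratio was 22.3-fold (edgeR adjusted p = 7.63e-05). At CT12, 4 genes were called, Cidec at 3.89, Plin4 at 2.06, Plin2 at 0.93 and Plin5 at 0.81, beside 15.2% of all genes. The Plin2 value at CT12 was 0.39 without MCD CT12 1, which had 712 CPM beside 325 and 305 in the other MCD libraries, and the call held in 14 of the 36 fits that left out 1 library and not with limma voom (0.80, adjusted p = 0.0639). Cideb at CT12 (-0.33, edgeR adjusted p = 0.0808) was called without control CT08 a (adjusted p = 0.0304). At CT00 Cidec (5.24) and Cideb (-0.39) were called, beside 12.6%, and limma voom did not call Cidec there (4.93, adjusted p = 0.0777). Plin2 at CT00 had 488, 413 and 319 CPM on control and 532, 507 and 1309 on MCD, a difference of 0.90 (adjusted p = 0.0605). It was called without control CT08 a (0.88, adjusted p = 0.0493), without MCD CT00 2 (1.12) or MCD CT12 1 (0.87), by DESeq2 and with library totals alone (1.17), and without MCD CT00 3, the library at 1309 CPM, it was 0.35 (adjusted p = 0.549).

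At CT16, Plin5, the perilipin of oxidative tissues, was higher (0.80) and Cideb lower (-0.48), beside 12.5% of all genes called. The Plin5 call was lost with a term for the kind of library (0.75, adjusted p = 0.0584), and without control CT16 2 its value was 0.58. Cidec had 1.09, 1.00 and 1.28 CPM on control and 4.86, 5.09 and 14.8 on MCD at CT16, with no overlap. Its difference of 2.84 ± 0.97 missed the threshold (edgeR adjusted p = 0.0552) and was called without control CT08 a (2.78, adjusted p = 0.00203), by DESeq2 (2.81, adjusted p = 0.0124) and with library totals alone (3.13). Plin2 and Plin3 had negative differences at CT16 that were not called. Plin2 had 343, 288 and 355 CPM on control and 294, 268 and 334 on MCD at CT16, a difference of -0.14 that became 0.14 with library totals alone. Plin3 had 43.4, 37.4 and 44.1 CPM on control and 34.0, 29.9 and 33.3 on MCD, which did not overlap (-0.36, edgeR adjusted p = 0.249). G0s2 had its highest values then, 63.0, 75.8 and 229 CPM on control and 318, 441 and 495 on MCD, a difference of 1.91 ± 0.69 (adjusted p = 0.0701). It was called by DESeq2 (1.89, adjusted p = 0.0367), with library totals alone (2.19, adjusted p = 0.025) and without MCD CT12 1 (1.92) or MCD CT20 2 (1.93). At CT20, G0s2 was called at 2.54 ± 0.71, with Cidec at 3.82, Plin5 at 0.87 and Cideb at -0.39, beside 11.3%. The G0s2 call at CT20 was lost without MCD CT20 2, which had 379.6 CPM beside 41.2 and 131 in the other MCD libraries, and the difference was then 1.10. It was also lost without control CT20 1 (2.16) or control CT20 2 (2.50). The Cidec call at CT20 was lost with limma voom (3.77, adjusted p = 0.207) and without MCD CT20 1 or any of the control libraries at CT20 (3.65 to 3.86). That of Plin5 was lost without MCD CT20 2 or any of those control libraries (0.66 to 0.89).

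At CT08 only Plin4 (2.46) and Plin5 (1.43) were called, beside 1.30% of all genes. Without control CT08 a, 6 of 7 were called there, all but G0s2, beside 5.86% of all genes. Cidec was then 5.46 ± 0.78 (edgeR adjusted p = 0.000164), Plin4 3.68, Plin5 1.85, Plin2 1.19, Plin3 0.75 and Cideb -0.43, and G0s2 was 1.45 (adjusted p = 0.335). Over the 6 times 19 of 42 gene and time pairs were called, beside 14393 calls over all 20249 genes (1.30% to 18.2% of genes per time). Of the 19, 6 kept the call whichever of the 36 libraries was left out: Cidec at CT00, CT04 and CT12, and Plin2, Plin4 and Plin5 at CT04. The share of all calls kept in this way was not counted. The other 13 lost it without at least 1 library. Of the 6, Cidec at CT00 was not called by limma voom. Cidec at all 3 times was lost without replicate 1 or 2 (edgeR adjusted p = 0.0503 to 0.209), and Plin2 at CT04 without replicate 2 (1.19, adjusted p = 0.127). These fits kept both same-named control CT08 columns, which carry no replicate number. With library totals alone the calls of Cideb at CT00, CT04, CT16 and CT20 were lost (-0.21 to -0.13), and Plin5 at CT00 (0.86), Plin3 at CT04 (0.73) and CT12 (0.83) and Plin4 at CT16 (1.68) were called.

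To ask how the genes follow the day, the 24 h component of the 6 time means was tested on each diet. On the control diet Cidec, Plin4 and Plin5 were called, 3 of 7, beside 17.8% of all genes. Plin5 peaked at CT 16.5 with a fitted peak-to-trough range of 1.22 log2 (edgeR adjusted p = 0.000686) and Plin4 at CT 15.8 with 2.01 (adjusted p = 0.0129). Plin5 had 31.3, 25.9 and 24.5 CPM at CT04 and 75.2, 46.2 and 90.2 at CT16, and these libraries did not overlap. Without replicate 1, 2 or 3 the Plin4 call was lost (edgeR adjusted p = 0.291, 0.0665 and 0.0639), and the Plin5 call was lost without replicate 1 (adjusted p = 0.0814). The Cidec peak at CT 10.2, range 4.19 (adjusted p = 0.00483), rested on control CT08 a: without it the peak was at CT 12.8 and the range 2.38 (adjusted p = 0.00776). With all libraries limma voom gave 3.16 and no call (adjusted p = 0.341). The edgeR call was lost without replicate 1 (3.93) or 2 (4.18), in fits that kept control CT08 a. Without control CT08 a, the highest control libraries of Cidec were at CT12, with 3.98, 2.31 and 1.55 CPM, against 0.386 to 0.449 at CT20. Plin4 and Plin5 had ranges of 2.50 and 1.42 without that library. G0s2 (peak CT 17.2, range 1.28, adjusted p = 0.235), Plin2 (CT 1.6, 0.53, 0.306), Plin3 (CT 3.8, 0.28, 0.457) and Cideb (CT 2.0, 0.15, 0.58) were not called.

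On the MCD diet 6 of 7 genes were called, all but Cideb, beside 28.2% of all genes. Plin2 peaked at CT 3.7 with a range of 1.49 log2 (edgeR adjusted p = 0.000393) and Plin3 at CT 5.3 with 1.06 (adjusted p = 0.000118). Plin2 fell from 607, 933 and 1159 CPM at CT04 to 294, 268 and 334 at CT16, and Plin3 from 69.2, 61.0 and 72 to 34.0, 29.9 and 33.3, with no overlap for either gene. Cidec peaked at CT 7.4 (2.50, adjusted p = 0.0335), Plin4 at CT 9.1 (1.83, 0.0121), Plin5 at CT 14.4 (0.72, 0.0325) and G0s2 at CT 18 (2.29, 0.0105). The fitted G0s2 peak was thus late and those of Plin2 and Plin3 early. The Plin4 call was lost without replicate 1 (1.66, edgeR adjusted p = 0.23) or 2 (1.72, adjusted p = 0.138). The G0s2 call was lost without MCD CT20 2 (range 1.54) and without replicate 2 (2.03) or 3 (2.69). The Cidec call was lost without replicate 1, 2 or 3 (2.30 to 2.64) and without MCD CT04 1, CT08 2, CT08 3, CT16 1, CT16 2 or any of the MCD libraries at CT20, with ranges of 2.12 to 2.84 over the libraries left out. The Plin5 call was lost without replicate 1, 2 or 3 (0.60 to 0.85) and without MCD CT00 1, CT04 1, CT04 2, CT12 1, CT12 3 or CT16 3, with ranges of 0.63 to 0.80 over the libraries left out. It was also lost with library totals alone (0.69, edgeR adjusted p = 0.0682).

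The difference in 24 h component between the diets was called for Plin4, 1 of 7 genes, beside 4.87% of all genes. The fitted Plin4 peak was CT 15.8 on control and CT 9.1 on MCD, and the range of the difference was 2.98 log2 (edgeR adjusted p = 0.0219). The call was lost without replicate 1, 2 or 3 (edgeR adjusted p = 0.336, 0.307 and 0.0637), in fits that kept control CT08 a. In CPM, Plin4 on control went from 2.85, 1.58 and 4.13 at CT04 to 16.2, 9.13 and 22.9 at CT16, and on MCD from 29.5, 50.3 and 125 to 30.3, 22.3 and 83.7. Plin5, its neighbour on the chromosome, had a difference of 0.71 that was not called (adjusted p = 0.309). Without control CT08 a, 3 of 7 were called, beside 6.01%: Plin4 at 3.77, Cidec at 3.19 (adjusted p = 0.0194) and Plin3 at 1.05 (adjusted p = 0.00652). A call on MCD and none on control, as for Plin2 and G0s2, is no test of a difference, and the test of the difference gave 1.07 for each of these genes (adjusted p = 0.165 and 0.723). For Plin2 it was called without MCD CT12 1 (1.24, adjusted p = 0.0473).

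**Figure D3:**
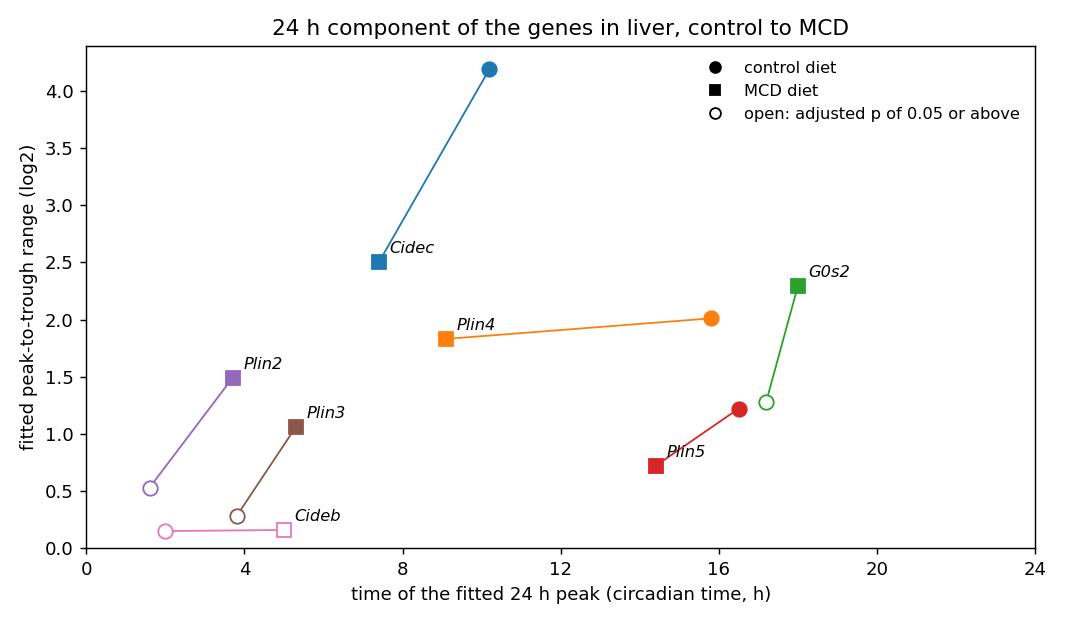
Fitted peak-to-trough range (log2) of the 24 h component in liver against the time of its peak (circadian time, h) for each gene, with a line from control (circle) to MCD (square) and open symbols where the edgeR adjusted p was 0.05 or above. Plin4 moved from CT 15.8 to CT 9.1, and Plin2, Plin3 and G0s2 have filled symbols only on MCD.

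Sex was the third label. The difference in diet effect between females and males was called for 0 of 7 genes by edgeR, beside 1.77% of all genes. Plin4 was the 1 member with an unadjusted p under 0.05, beside 12.3%. Plin4 averaged 10.5 ± 5.93 CPM in 12 control males and 31.7 ± 18 in 12 MCD males, and 11.3 ± 7.71 in 6 control females and 76.1 ± 34.4 in 6 MCD females (SD). The female library was the highest of the 3 in each of the 6 MCD groups. The sex by diet difference of Plin4 was 1.27 ± 0.43 log2 (edgeR adjusted p = 0.156), and DESeq2 called it (adjusted p = 0.0399). For the other 6 genes it lay between -0.71 (G0s2) and 1.23 (Cidec), with edgeR adjusted p of 0.453 or more, and without control CT08 a the Cidec value was 0.61 (adjusted p = 0.68).

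The order of levels was read per kilobase of exon, since the genes differ in length. In control liver Cideb was highest at 126 ± 12.1 CPM per kb (SD, n = 18), followed by Plin2 at 93.3 ± 21.7 and G0s2 at 67 ± 58.3, and the ranges of these 3 genes overlapped. Plin5 had 24 ± 9.73, Plin3 10.9 ± 2.6, Plin4 1.86 ± 1.1 and Cidec 1.31 ± 3.41, the last with a median of 0.303. The Cidec mean rested on control CT08 a: before division by length it was 2.43 CPM with that library and 0.959 without it. On MCD, G0s2 (201 ± 169) and Plin2 (167 ± 85.4) had higher means than Cideb (95.8 ± 9.4), though their libraries overlapped it. Cidec (11.3 ± 8.48), Plin3 (12.7 ± 3.78) and Plin4 (8.05 ± 5.53) then had overlapping levels. In control SCN, G0s2 was highest at 5.26 ± 1.47, followed by Cidea (2.56 ± 1.08), Plin2 (2.09 ± 0.564), Plin3 (1.65 ± 0.491), Plin5 (1.34 ± 1.18), Cideb (0.978 ± 0.508) and Plin4 (0.644 ± 0.413), with each neighbour overlapping the next. Exon lengths come from GENCODE M21, not from the build of the counts.

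**Figure D4:**
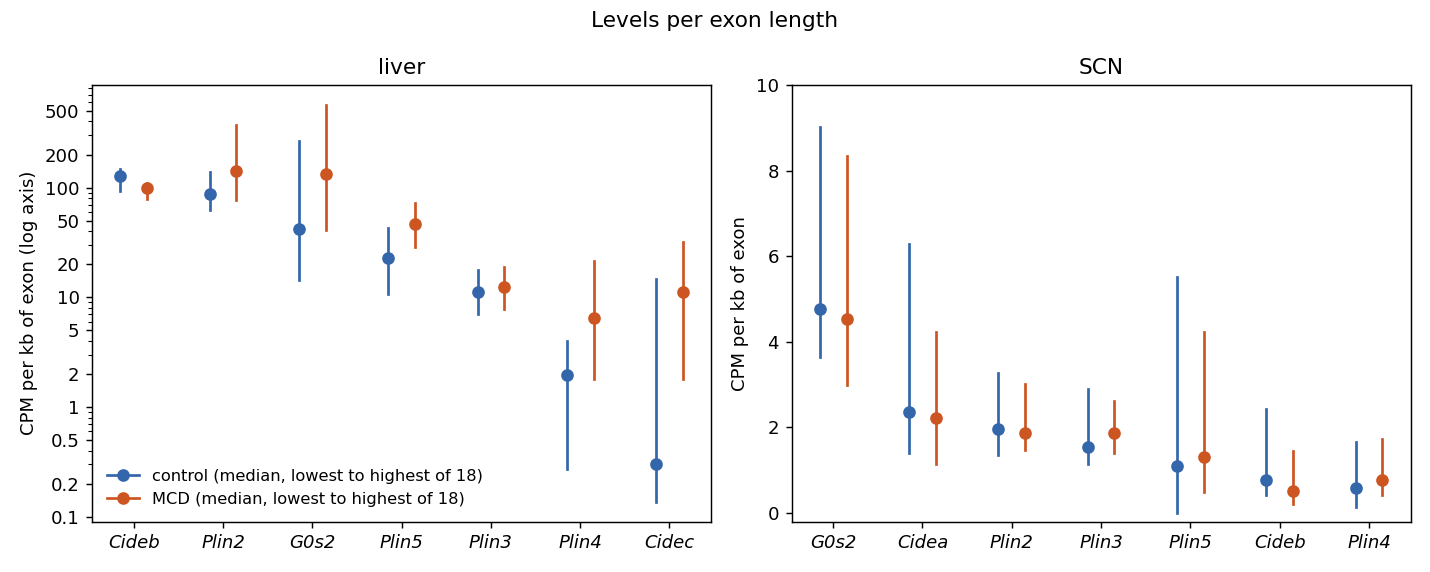
CPM per kb of exon of each gene in liver (left, log axis) and SCN (right, linear axis) on control and MCD; points are medians and lines run from the lowest to the highest of 18 libraries. In liver the medians of Cideb, Plin2 and G0s2 lie above the other medians, though the G0s2 range overlaps that of Plin5 on both diets, and in the SCN all medians lie under 5 CPM per kb.

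In the SCN the diet moved none of these genes past the threshold. Of 7 genes 0 were called by edgeR, beside 0.0635% of 15759 genes. At an unadjusted p under 0.05 there were 3, Plin4, Cideb and Plin3, beside 4.73% of all genes, and DESeq2 and limma voom called none of the 7 after adjustment. Plin4 had 0.876, 3.38 and 9.52 CPM (lowest, median, highest) on control and 2.45, 4.49 and 9.99 on MCD, with the ranges overlapping. At CT04 alone they did not overlap. The Plin4 difference was 0.61 ± 0.17 log2 (edgeR adjusted p = 0.332). Single times without overlap were also seen for Cideb (2 times, lower on MCD) and for Plin2 and Plin3 (1 time each, higher on MCD). How many of all genes have such times was not counted. Cideb had 0.616, 1.16 and 3.60 CPM on control and 0.328, 0.772 and 2.15 on MCD, a difference of -0.71 ± 0.24 (adjusted p = 0.609). Plin3 had 4.37, 5.83 and 11.0 CPM on control and 5.29, 7.04 and 9.89 on MCD, a difference of 0.24 ± 0.10 (adjusted p = 0.836).

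The other SCN differences were close to 0 with intervals that bound them. Cidea, which in the SCN had 1.57, 2.63 and 7 CPM on control and 1.27, 2.47 and 4.73 on MCD, differed by -0.12 (95% interval -0.43 to 0.20). Plin2, at 4.74, 6.88 and 11.5 CPM against 5.17, 6.53 and 10.6, differed by -0.05 (-0.27 to 0.16). G0s2, at 3.17, 4.15 and 7.85 CPM against 2.61, 3.95 and 7.26, differed by -0.14 (-0.37 to 0.09). Plin5 had 0, 2.29 and 11.5 CPM against 1.03, 2.74 and 8.82 and differed by 0.03 (-0.58 to 0.65), the widest interval of the 7. Its 0 is that of control CT04 3 in the gene table, while the exon-bin file of that name holds 32 counts of Plin5, so the 0 is a listed value only. Without that library the Plin5 difference was -0.06. Cidec, with no row in the SCN table, had 268 exon-bin counts over 18 control files and 222 over 18 MCD files, with 4 and 3 files at 0 and at most 46 counts in a file of either diet.

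**Figure D5:**
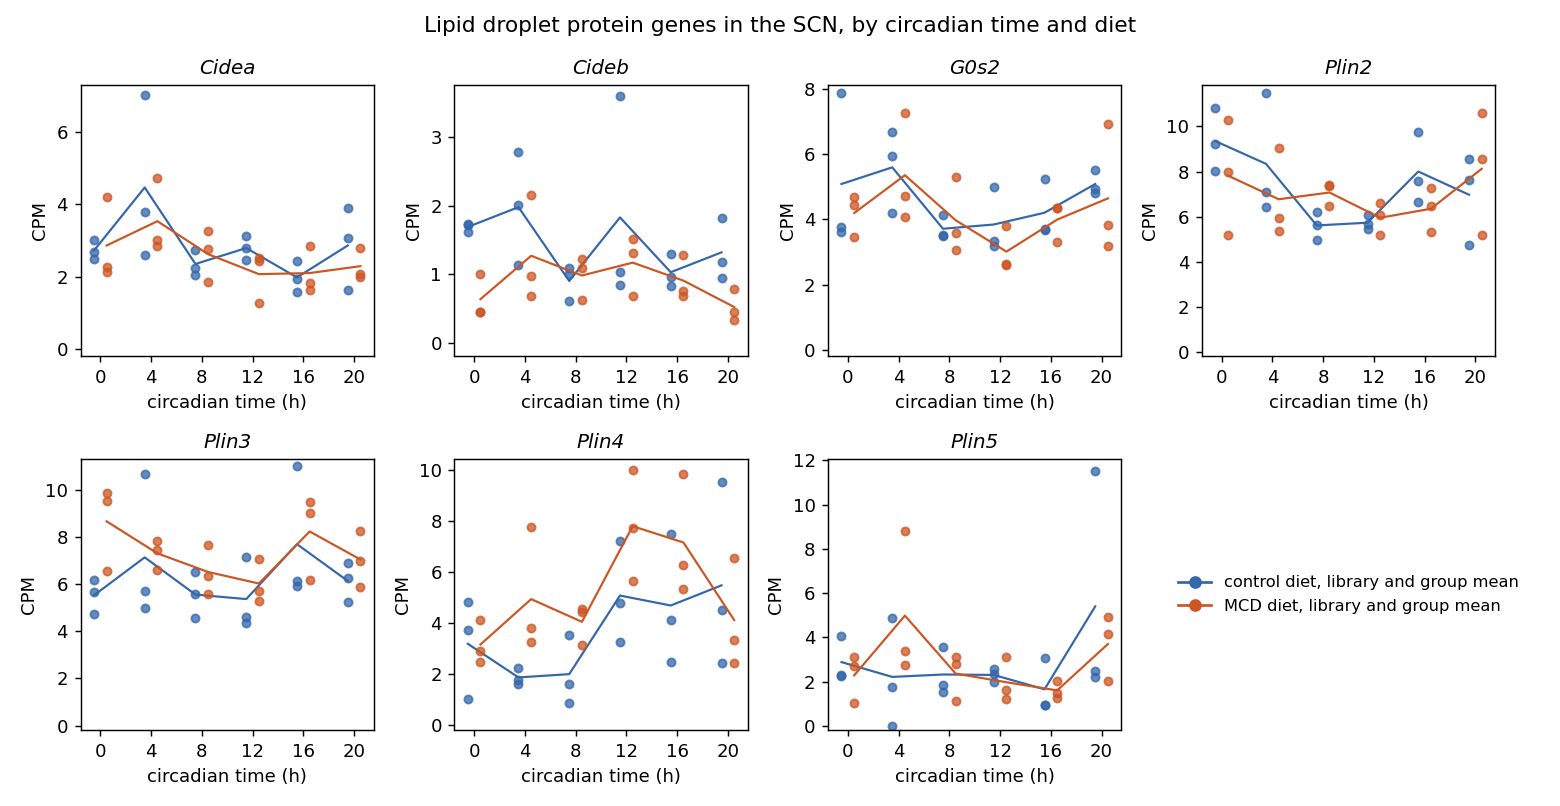
CPM of the 7 genes listed in the SCN (linear axes from 0) against circadian time in h; each point is 1 of 36 libraries and lines join the means of 3 libraries per diet and time. With all times pooled the 2 diets overlap for all 7 genes, and Plin4 means are higher at CT12 and CT16 than at CT04 on both diets.

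Plin4 was also the SCN gene with a 24 h component on control, 1 of 7, beside 15.1% of all genes. It peaked at CT 17.0 with a range of 1.59 log2 (edgeR adjusted p = 0.00603), and had 1.61, 1.78 and 2.23 CPM at CT04 against 4.12, 2.48 and 7.48 at CT16. The call was lost without replicate 1 (1.46, edgeR adjusted p = 0.0697). On MCD none of 7 was called by edgeR, beside 16.1% of all genes. Plin4 then peaked at CT 13.5 with 1.10 (adjusted p = 0.065), and it was called by limma voom (1.24, adjusted p = 0.00642) and without control CT00 1 (1.10), MCD CT20 1 (1.25) or MCD CT20 3 (1.11). At an unadjusted p under 0.05 Plin2 on control (0.62, edgeR adjusted p = 0.124) and Plin4 on MCD were the only further members, beside 28.8% and 30.2% of all genes. Plin2 on control was called without control CT20 3 (0.75). Astrocyte, ependymal, microglial and endothelial markers were present in the SCN libraries, and none of these or of the macrophage markers was called by diet.

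Liver and SCN were then compared directly for the 6 genes in both tables. On the control diet all 6 were higher in liver, beside 90.4% of 14491 genes called and 44.1% called higher in liver. The liver excess was 284-fold for Cideb (8.15 ± 0.17 log2), 88.1-fold for Plin2, 41.3-fold for Plin5, 19.8-fold for G0s2, 14.0-fold for Plin3 and 5.93-fold for Plin4 (2.57 ± 0.24). With library totals alone the 6 differences were smaller, from 7.44 log2 for Cideb, 5.76 for Plin2, 4.67 for Plin5, 3.60 for G0s2 and 3.11 for Plin3 to 1.87 for Plin4, and all were called. The diet effect was larger in liver for 4 of 6, beside 34.7% of all genes called in either direction. Of those 5025 genes, 2737 had a difference in the same direction as these 4. It exceeded that in the SCN by 1.73 ± 0.30 log2 for G0s2 (edgeR adjusted p = 1.3e-05), 1.39 ± 0.29 for Plin4 (0.000177), 0.98 ± 0.28 for Plin5 (0.00568) and 0.81 ± 0.17 for Plin2 (0.000149). For Cideb the difference between tissues was 0.30 (95% interval -0.07 to 0.67) and for Plin3 -0.07 (-0.32 to 0.17), neither called. With library totals alone Plin3 turned to 0.09 and Cideb was called at 0.46 (adjusted p = 0.0366). SCN libraries were not tied to the liver libraries by the labels, and the fit treats them as independent.

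Exon-bin counts gave a readout that the gene counts do not hold, the share of each gene's counts in each exon. No member was called for a change in exon usage with diet by edgeR's Simes test, 0 of 7, beside 3.99% of 13242 genes and 0.440% of bins, in 34 complete liver files (16 control, 18 MCD). At an unadjusted p under 0.05 the count was also 0, beside 8.78% of genes, and the gene-level F test called none of the 7. G0s2 had 76.4 ± 1.26% of its counts in its first bin on control and 75.8 ± 0.777% on MCD. For Plin5 the largest bin held 26.0 ± 1.45% and 25.8 ± 1.08%, and for Plin4 30.0 ± 4.85% and 29.0 ± 1.76%. The shares of these 3 bins differed by less than the SD of either diet, while the gene totals differed by diet. The difference exceeded the SD of both diets in 2 small bins, bin 10 of Plin5 (1.47 ± 0.404% and 1.95 ± 0.332%) and bin 11 of Plin4 (1.23 ± 0.957% and 2.28 ± 0.641%), and neither was called.

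The genes around lipid storage were read from lists of droplet proteins, lipolysis, triglyceride synthesis and regulators. Of 10 other droplet proteins tested in liver 3 were higher and 1 lower on MCD, beside 25.3% higher and 21.2% lower over all genes, with a median of -0.04 log2 beside 0.02. Hilpda, a hypoxia-induced inhibitor of triglyceride lipase, rose by 0.65 ± 0.15 from 1.61 to 2.56 CPM. Hsd17b13, a droplet enzyme of hepatocytes, rose by 0.47 ± 0.08 from 264 to 366 CPM, and Fitm2, which acts in droplet budding, by 0.31 ± 0.09. The lower gene was Ldah (-0.28), named after its value was seen. With library totals alone the counts were 8 higher and 0 lower, with a median of 0.21 log2 beside 0.27 over all genes. Under that scaling 10633 of 20249 genes were called higher.

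Of 8 lipolysis genes 1 was higher and 5 were lower, beside the same 25.3% and 21.2% over all genes (median -0.27 log2 beside 0.02). Pnpla3, a droplet lipase-like protein, fell from 43.7 ± 37.1 to 0.705 ± 0.483 CPM (SD, n = 18; -5.53 ± 0.36 log2, edgeR adjusted p = 1.97e-11), a larger mean difference than those of the 7 droplet genes tested in liver. Aadac and Ces1d, esterases of the endoplasmic reticulum, fell by 1.24 ± 0.09 and 0.99 ± 0.18 log2. The higher gene was Pnpla2, the lipase that G0s2 inhibits (0.49 ± 0.11, 54.9 ± 21.2 to 78.7 ± 33.2 CPM), and the other lower genes were Mgll (-0.28) and Abhd5, a lipase cofactor (-0.27), named after their values were seen. Library totals alone left 3 lower and 2 higher, with a median of -0.02 log2 beside 0.27 over all genes.

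Of 10 triglyceride synthesis genes 2 were higher and 2 lower, beside 25.3% and 21.2% over all genes (median -0.10 log2 beside 0.02). Gpat3, an acyltransferase of the first step, rose from 3.69 ± 3.15 to 23.9 ± 11.8 CPM (2.83 ± 0.26 log2) and Mogat2 from 0.382 to 1.16 CPM (1.63 ± 0.39). Gpam, the mitochondrial enzyme of the same first step, fell by 0.92 ± 0.14 log2. Dgat2, of the last step, was the other lower gene (-0.29), named after its value was seen. With library totals alone 4 were higher and 1 lower, with a median of 0.15 log2 beside 0.27 over all genes.

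Of 12 regulators 5 were higher and 3 lower, beside 25.3% and 21.2% over all genes (median 0.03 log2 beside 0.02). Srebf1, a driver of fatty acid synthesis, fell by 1.23 ± 0.17 log2 from 632 to 253 CPM, and Mlxipl, the carbohydrate response factor, by 0.51 ± 0.10. Pparg, which drives Cidec and Plin4 in fat cells, rose by 1.12 ± 0.16 from 5.79 to 13.4 CPM, while Ppara had a difference of -0.22 that was not called (edgeR adjusted p = 0.0568). The other higher genes were Ppargc1a, Nr1d2, Creb3l3 and Esrra (0.21 to 0.38) and the other lower one was Ppard (-0.32), named after their values were seen. Without control CT08 a the counts over the 4 lists were 3 and 1, 2 and 5, 2 and 3, and 4 and 4 (higher and lower). In the SCN none of the 7, 6, 8 and 9 listed genes of the 4 lists was called by edgeR, and 1 (Rora, 0.17 ± 0.07) had an unadjusted p under 0.05.

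Across the 36 liver libraries the member pair with the highest correlation was Plin4 and Plin5 (Pearson r 0.86 on log2 CPM). After subtracting a fit of the diet and time groups and sex it was 0.81, and 0.73 without control CT08 a. Cidec and Plin3 had 0.79 within groups and 0.63 without that library, while G0s2 had -0.01 with Cidec and 0.09 with Plin4 within groups. These libraries share diet, time and depth, and the values describe them only. By the same measure over 13833 genes, and leaving the members out, the genes most like Cidec were Blnk, Cgref1 and Aprt (r 0.94 each), and those most like Cideb were Nipsnap1 (0.95), Ndufv3 (0.94) and Slc10a1 (0.93). For Plin2 they were Phospho1 (0.87), Cdc42bpa (0.84) and Sqstm1 (0.83), and for Plin3 Cdc42, Bin1 and Mgat4b (0.83 each). For Plin4 they were Pex11a (0.87), Otud3 (0.84) and Qsox2 (0.83), and for Plin5 Qsox2 (0.85), Taf1c (0.84) and Adam23 (0.83), while the 0.86 of Plin4 and Plin5 with each other was above all of these but that of Plin4 with Pex11a. For G0s2 they were Zfp574 (0.89), Angptl8 (0.84) and Zfp770 (0.84).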

How the data were processed

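The deposited values are counts per gene and per exon bin from stranded poly(A) libraries, made by the authors with Trimmomatic, HISAT2 and StringTie on GRCm39, per the submitters' processing notes. Tool versions and the strand setting of the counting are not given in the sources. Counts were tested with edgeR 4.0.16 in R 4.3.3 (filterByExpr with a minimum count of 10, TMM, robust quasi-likelihood F test), on 12 groups of diet and time plus sex for each tissue, with Benjamini-Hochberg adjustment over all genes. Exon usage was tested on 34 liver exon-bin files, because those of control CT00 1 and 2 end early. DESeq2 1.42.0, limma 3.58.1 (voom), other scalings, a replicate block and left-out libraries were alternatives. The same-named control CT08 columns carry no replicate number, so the block fits of gene counts left both out and kept 1 control CT08 library. Gene count fits without replicate 1 or 2 kept both. The tests were checked on simulated counts. Members and gene lists were chosen with earlier results of these data known. All 8 members are named, with the 3 genes of the largest change per list and the 3 most like each member. No member was ranked for likeness to another.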

Additional observations from a re-analysis of the deposited data

Results flagged for a closer look

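Effects that differed between groups by a test of the difference itself were those of 4 genes. The 24 h component of Plin4 in liver differed between the diets, with a range of the difference of 2.98 log2 (edgeR adjusted p = 0.0219). The call was lost without replicate 1, 2 or 3 (adjusted p = 0.336, 0.307 and 0.0637), in fits that kept control CT08 a. The diet effect was larger in liver than in the SCN by 0.81 log2 for Plin2, 1.39 for Plin4, 0.98 for Plin5 and 1.73 for G0s2. Plin4 missed the threshold without replicate 3 of each group (0.76, adjusted p = 0.0818). Plin5 missed it without replicate 2 (0.84, adjusted p = 0.0936) and with limma voom (0.76, adjusted p = 0.125).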

How the results depend on the processing

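Of 4681 alternative values of single members, 4424 kept direction and side of the threshold, 172 lost a call, 63 gained one and 22 turned sign. The tissue level and the liver mean diet effect kept their member counts within 1.5 times under every alternative run. Ranges over left-out replicates or libraries follow for members called and for all genes. The liver rhythm on control gave 0 to 3 members (3 in all libraries) and 565 to 3957 genes (3611). The rhythm on MCD gave 2 to 6 (6) and 2448 to 6240 (5704). The effect at each time gave 2 to 26 (19) and 1107 to 18335 (14393), with 23933 genes by library totals alone. The rhythm difference gave 0 to 3 (1) and 4 to 1243 genes (986), 3 members and 651 genes with the replicate block, 2 members with a term for the kind and 3 without control CT08 (a). The liver mean effect gave 6386 to 10049 genes (9426), and 5042 and 4583 within the high and the low kind, with fewer libraries. Exon usage gave 206 to 679 genes (529; at most 430 without a replicate), 803 by the gene-level F test and 336 with the kind as a term. Sex by diet gave 19 to 497 genes (359), and 1 member and 741 genes by DESeq2; it could not be fitted without replicate 3. The SCN rhythm on control gave 0 to 2 members (1) and 811 to 2621 genes (2378), and 0 and 1248 with the replicate block. That on MCD gave 0 to 1 (0) and 775 to 2911 genes (2544), and 1 member by limma voom. The SCN mean effect gave 0 to 17 genes (10), 48 by DESeq2, 20 by limma voom and 4 with the replicate block. Tissue by diet gave 2941 to 5547 genes (5025; at most 4397 without a replicate). By library totals alone Cideb at CT12 was 0.03, Plin2 at CT16 0.14 and the tissue difference of Plin3 0.09, and higher calls went from 51.9% to 88.4% at each time, 54.5% to 83.0% for tissue by diet, 48.8% to 30.0% for tissue level and 51.5% to 40.5% for sex by diet. The labels do not say that a replicate number marks shared mice, and not every same-numbered pair had deviations correlated above 0.1: for numbers 1, 2 and 3, 25 of 55, 29 of 55 and 57 of 66 pairs did in liver and 32 of 55, 5 of 55 and 28 of 66 in the SCN. Number 3 is the female of every group and numbers 1 and 2 are males. Sex was not subtracted from these deviations, so shared sex and a shared number cannot be told apart in them. The replicate block was fitted without both same-named control CT08 columns, which takes out control CT08 a and leaves 1 control CT08 library. Its values are therefore not those of the block alone. In liver it gave 0.25 for the Plin3 mean effect, 5.64 and 2.81 for Cidec at CT08 and CT16, and -0.33 for Cideb at CT12. Leaving out control CT08 a alone gave 0.23, 5.46, 2.78 and -0.33. Plin3 at CT00, CT04 and CT12 was 0.45, 0.42 and 0.45, beside 0.43, 0.42 and 0.45 without control CT08 a alone. The SCN rhythm of Plin4 on control was 1.38 in the block fit and was not called. With the block the tissue difference of Plin3 was 0.01 and SCN Plin5 -0.01. Over left-out replicates or libraries G0s2 at CT12 was -0.01 to 1.76, Plin4 at CT20 -0.01 to 0.66, G0s2 by sex and diet -0.89 to 0.03, SCN Cidea -0.25 to 0.01, SCN Plin5 -0.11 to 0.25, and the Plin3 tissue difference -0.26 to 0.12. The cause was not tested.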
